A study of Mus musculus with 6 samples.

Results

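The laminins, nidogens and heparan sulfate proteoglycans of the basement membrane were followed as 10 genes in MC3T3-E1 osteoblasts (OBs) with and without ascorbic acid (AA): the laminin chains Lama2, Lama4, Lama5, Lamb1, Lamb2 and Lamc1, the nidogens Nid1 and Nid2, and the proteoglycan genes Hspg2 (perlecan) and Agrn (agrin). Members were all probe sets that the platform's symbol field assigns to these genes, a rule that uses no measured value. The genes themselves were chosen with earlier results of these data known. A probe set is a group of short probes that reads 1 stretch of a transcript. The rule found 21 of the 45037 probe sets tested, covering all 10 genes, and none was shared with another gene symbol. Lamb1 was read by 4 probe sets, Lama5 and Nid1 by 3 each, Lama4, Lamc1, Hspg2 and Agrn by 2 each, and Lama2, Lamb2 and Nid2 by 1 each.

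MC3T3-E1 subclone 4 is a mouse calvarial pre-osteoblast line, here a single subclone. The 3 control cultures were left untreated for 5 days and the 3 AA cultures received 50 µg of AA for the same 5 days, a dose that the study's methods give per ml. Both groups were kept in α-MEM without AA of its own and with heat-inactivated serum, in 6-well plates, and total RNA of each sample went to its own Affymetrix Mouse Genome 430 2.0 array. The sources do not settle whether the arrays of a group came from separate experiments or from wells of the same experiment, so p-values measure the spread between these arrays, which may be technical.

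Laminins are trimers of an α, a β and a γ chain, many of which are cross-shaped and polymerize at the cell surface. Nidogens bind the γ1 chain and link the laminin network to that of collagen IV, while perlecan and agrin add heparan sulfate chains and, like laminins, attach to dystroglycan and other receptors. Such sheets are best known from epithelia, vessels, muscle and nerve. The bone matrix that OBs lay down is built mainly of collagen I, and AA is the cofactor of the enzymes that hydroxylate collagen.

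In the AA cultures the linker nidogen-2 and the laminin β1 chain were lower, while the laminin α4 chain and perlecan stayed within the spread between arrays. Nid2 was 1.59-fold and Lamb1 1.29-fold lower by their brightest probe sets, and Lamc1, the γ1 chain, was 1.34-fold lower without passing the test (limma adjusted p = 0.0643). The Lamb1 call was kept under 4 of 19 alternative settings and was lost when replicate numbers were not modelled (limma adjusted p = 0.0891). In bulk RNA, fewer cells of a type and less RNA per cell cannot be told apart. The test was limma's, fitted across all probe sets on log2 signals and blocked by replicate number, with p-values adjusted over the whole array. Of the 21 probe sets, it called 0 higher and 2 lower at an adjusted p under 0.05, which left 19 uncalled. Over all probe sets on the array 2.71% were called higher and 2.5% lower. At an unadjusted p under 0.05, 2 of the 21 were higher and 3 lower, beside 8.58% and 9.41% of all probe sets, so these counts lay near the background. The methods' paired test put 1 higher and 2 lower at that unadjusted threshold, beside 5.8% and 6.28% of the array, and after Benjamini-Hochberg adjustment it called 0 of all 45037 probe sets in either direction. The median log2 fold change was 0.12 over the 21 probe sets and -0.03 over the brightest probe set of each gene, beside -0.01 over all probe sets and -0.02 over the brightest of all 18193 genes.

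The precision differed widely between probe sets. Of the 21, 12 had a mean log2 signal above the median of all probe sets (3.93), and the standard error (SE) of their log2 fold change ran from 0.07 to 0.45. The other 9 had deposited signals between 0.180 and 28.0 on single arrays and SEs of 0.34 to 1.12. Both genes with no probe set above that median were laminin α chains, Lama2 and Lama5. Values of different probe sets are not set against each other as levels, since a probe set's brightness also depends on its probes.

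**Figure D1:**
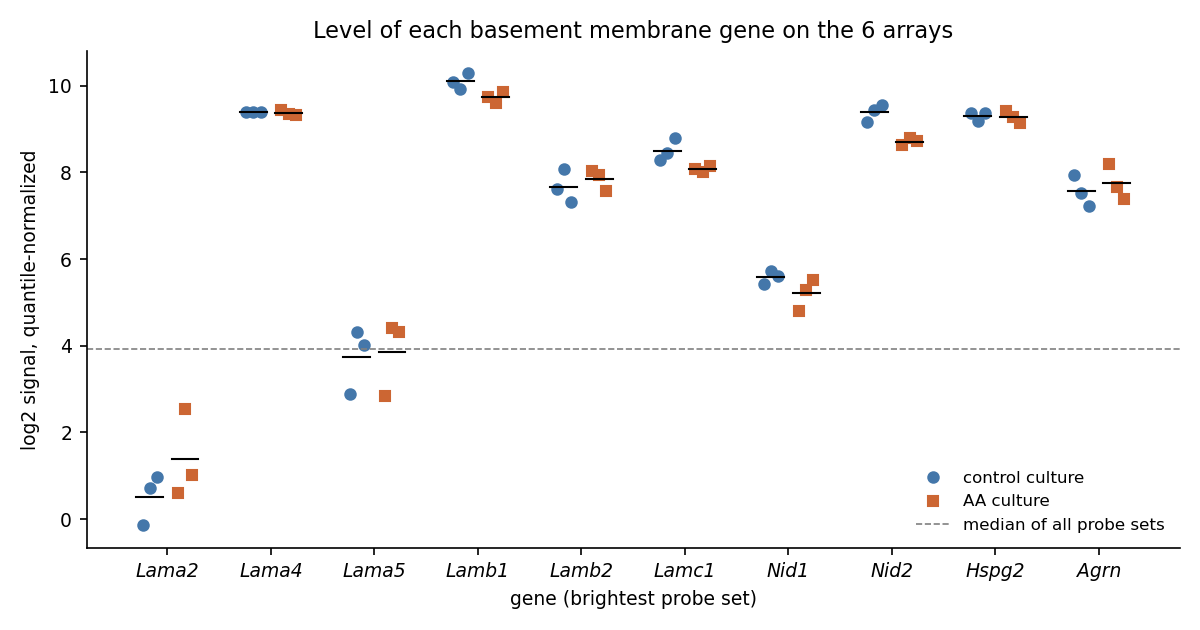
Log2 quantile-normalized signal of the brightest probe set of each of the 10 genes on the 6 arrays. The 3 control arrays are circles and the 3 AA arrays squares, with group means as short lines and, dashed, the median of all probe sets (3.93); the groups do not overlap for Lamb1, Lamc1 and Nid2, and both Lama2 and Lama5 have group means below that line.

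The upstream sequences of the β chain genes are shown because Lamb1 was called lower in AA and its counterpart Lamb2 was not called. A difference between these genes was not established, since the ratio of Lamb1 to Lamb2 had overlapping groups (exact permutation p = 0.2). RefSeq's promoter table (GRCm38.p6) held 7 of the 10 genes, and Lama4, Lamc1 and Nid2 had no entry. The 250 bases before the annotated start are printed 5′ to 3′ on the gene's strand, with GC boxes (GGGCGG, here found as its reverse complement) in capitals. Lamb1 lies at chr12:31265043-31265292 on the + strand and Lamb2 at chr9:108479612-108479861 on the + strand.
Lamb1: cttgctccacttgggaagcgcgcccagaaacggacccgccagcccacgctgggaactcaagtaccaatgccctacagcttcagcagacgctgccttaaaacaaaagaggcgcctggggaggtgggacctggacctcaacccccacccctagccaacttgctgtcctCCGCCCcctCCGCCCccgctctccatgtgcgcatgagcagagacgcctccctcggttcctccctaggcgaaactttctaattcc
Lamb2: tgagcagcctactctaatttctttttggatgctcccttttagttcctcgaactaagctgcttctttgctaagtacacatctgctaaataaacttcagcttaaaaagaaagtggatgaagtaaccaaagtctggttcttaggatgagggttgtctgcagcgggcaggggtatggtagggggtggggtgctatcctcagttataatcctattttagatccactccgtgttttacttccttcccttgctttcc
The Lamb1 stretch was 62.0% G and C and held 2 GC boxes and 1 CCAAT match, and the Lamb2 stretch was 43.6% G and C and held none of the 5 motifs searched. The search ran on both strands. A GC box, GGGCGG, was held by 32.7% of all 32851 promoters of this length, and a CCAAT match by 33.9%. A TATA box, searched as TATAAA, stood in 12.4% of them. The AP-1 motif TGANTCA was found in 6.75% and the E-box CACGTG in 6.02%. Of the other members with an entry, Lama5 had 4 GC boxes, Hspg2 had 5, Nid1 had 1 and Lama2 had 0, while Agrn had 12 and 2 in the windows before its 2 annotated starts. These matches are a description of the letters in these windows, and a link to the signals was not tested.

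Nid2 was the member with the largest fall among those that passed. Its only probe set had deposited signals of 575, 691 and 761 in the control cultures and of 384, 433 and 421 in the AA cultures. Every AA array lay below every control array. The estimated log2 fold change was -0.67 (SE 0.09, limma adjusted p = 0.00555), and the same-numbered arrays differed by -0.53, -0.64 and -0.85 on the log2 scale. With the replicate number left out of the model, the limma adjusted p was 0.0106. In that model without control replicate 2, the limma adjusted p was 0.0541, and without control replicate 3 the log2 fold change was -0.58 (adjusted p = 0.0298).

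Nid1 encodes nidogen-1, the close relative that binds the same laminin chain. Its brightest probe set had signals of 41.7, 55.7 and 47.7 in control and of 27.7, 39.5 and 46.1 in AA cultures. The AA mean was lower, but the groups overlapped, with a log2 fold change of -0.37 (SE 0.20, limma adjusted p = 0.382) and a 95% interval of -0.83 to 0.08. The interval includes both no change and the fall estimated for Nid2. The other Nid1 probe sets had signals under 10 on every array and log2 fold changes of -1.31 and 1.17 with SEs of 0.83 and 1.03.

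Lamb1 encodes the β1 chain, shared by many laminin trimers. Its brightest probe set had signals of 1085, 968 and 1255 in control cultures and of 853, 772 and 920 in AA cultures. All AA arrays were below all control arrays, and the differences between same-numbered arrays were -0.34, -0.33 and -0.43 on the log2 scale. The log2 fold change was -0.37 (SE 0.07, limma adjusted p = 0.0275), and with the replicate number left out of the model the limma adjusted p was 0.0891. In that second model 1 of the 21 probe sets was called lower, that of Nid2, beside 2.31% of all probe sets. After median centring in place of quantile normalization, with the block, the log2 fold change of Lamb1 was -0.43 and its adjusted p 0.0734.

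Only that probe set of Lamb1 passed the test. The next had signals of 203, 224 and 246 in control and of 150, 218 and 239 in AA cultures, with overlapping groups and a log2 fold change of -0.15 (SE 0.12, limma adjusted p = 0.586). Another had signals of 60.8, 35.3 and 11.8 in control and of 41.2, 45.7 and 61.3 in AA cultures (log2 fold change 0.73, SE 0.45). The dimmest was estimated at 0.32 (SE 0.78). The brightest Lamb1 probe set carries the suffix _s_at, which on this array marks probes that can match transcripts of more than 1 gene. The brightest Hspg2 probe set and the Lama5 probe set whose groups did not overlap, both described below, carry it too. With the mean of the 4 Lamb1 probe sets in place of the brightest, the log2 fold change of Lamb1 was 0.13 (limma adjusted p = 0.657).

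Lamb2, the β2 chain of the neuromuscular junction and the kidney filter, had signals of 197, 273 and 160 in control and of 257, 241 and 190 in AA cultures. The groups overlapped, with a log2 fold change of 0.18 (SE 0.13, limma adjusted p = 0.538). The 95% interval of the model with the replicate block was -0.11 to 0.47, and a fall as large as that of Lamb1 lay outside it. With the replicate number left out, the limma adjusted p was 0.716, and an interval for that model is not given here.

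Lamc1 encodes the γ1 chain, the chain to which nidogens bind. Its brightest probe set had signals of 316, 352 and 447 in control cultures and of 264, 253 and 283 in AA cultures. The groups did not overlap, and the same-numbered arrays differed by -0.21, -0.43 and -0.64 on the log2 scale. The log2 fold change of -0.43 (SE 0.11, 95% interval -0.67 to -0.18) had an adjusted p of 0.0643 from limma. On the signals as deposited the adjusted p was 0.0413 and after median centring 0.0340. With only the probe sets above the median signal it was 0.0474 (all from limma), so the call depended on the scaling and on that filter.

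The other Lamc1 probe set had signals of 19.4, 4.76 and 2.13 in control and of 28.0, 12.9 and 22.2 in AA cultures, a log2 fold change in the opposite direction of 1.73 (SE 0.56, limma adjusted p = 0.140). With 50 added to every signal it was 0.27. The mean of both Lamc1 probe sets had a log2 fold change of 0.65 (limma adjusted p = 0.187).

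Control replicate 3 had the highest control signal on the brightest probe sets of Nid2, Lamb1 and Lamc1. The same array stood highest in the 3′ over 5′ signal of the array's Gapdh controls, which rises as RNA degrades, at 0.920 against 0.791 to 0.809 on the other arrays, and in that of actin, at 1.79 against 1.35 to 1.45. With replicate 3 of both groups left out, the log2 fold changes were -0.59 for Nid2 (adjusted p = 0.00871), -0.34 for Lamb1 (adjusted p = 0.0718) and -0.32 for Lamc1 (adjusted p = 0.187, all from limma). All these values remained below 0, and the part of that array's RNA quality in the results was not tested. Lamb1 also missed the threshold without replicate 1 and without replicate 2 (adjusted p = 0.0659 and 0.139), and Lamc1 passed it without replicate 1 (adjusted p = 0.0341).

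**Figure D2:**
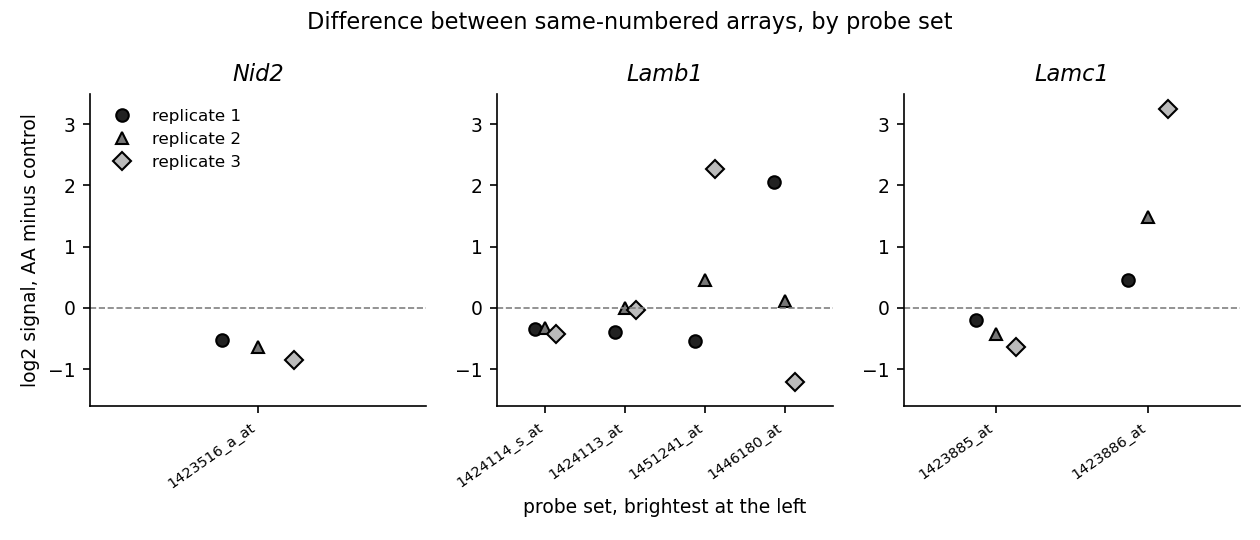
Difference in log2 signal between the AA and the control array of the same replicate number, for every probe set of Nid2, Lamb1 and Lamc1, with the brightest at the left of each panel and 1 symbol per replicate number. The brightest probe sets lie below 0 in all 3 pairs, the Nid2 values between -0.85 and -0.53. The second brightest of Lamb1 also lies below 0 in all 3 pairs, at -0.40, -0.0008 and -0.04. The remaining Lamb1 and Lamc1 probe sets scatter up to 3.24.

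The laminin α chains, which carry the main receptor-binding domains, showed no called change. Lama4, the α4 chain known from vessels, fat and other mesenchymal tissue, had signals of 674, 669 and 682 in control cultures and of 691, 647 and 640 in AA cultures by its brightest probe set. The groups overlapped, and the log2 fold change was -0.02 (SE 0.08) with a 95% interval of -0.20 to 0.16. The estimates for Nid2, Lamb1 and Lamc1 all lie below that interval. Its second probe set had signals of 15.5 to 37.2 and a log2 fold change of 0.31 (SE 0.29).

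Lama2, the α2 chain of muscle and peripheral nerve, had signals of 0.830, 1.84 and 1.77 in control and of 1.60, 6.12 and 1.94 in AA cultures. All lay below the median of all probe sets, where the log2 fold change of 0.87 (SE 0.80) carries little information. Lama5, the α5 chain of epithelia and vessels, had signals of 6.80, 21.4 and 15.0 in control and of 7.39, 22.1 and 19.8 in AA cultures by its brightest probe set, with a log2 fold change of 0.12 (SE 0.34).

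A dimmer Lama5 probe set had signals of 3.47, 4.31 and 10.5 in control and of 18.6, 15.7 and 13.1 in AA cultures. The groups did not overlap, with a log2 fold change of 1.48 (SE 0.53, limma adjusted p = 0.179), which with 50 added to every signal was 0.22. The remaining Lama5 probe set was estimated at 0.02 (SE 1.01). In all, 4 of the 21 probe sets had groups that did not overlap: 1 each of Nid2, Lamb1 and Lamc1 with AA lower and 1 of Lama5 with AA higher. Over the whole array, 12% of probe sets had all AA arrays below all control arrays and 11% the opposite.

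Of the proteoglycans, Hspg2 had signals of 661, 584 and 669 in control and of 678, 609 and 563 in AA cultures by its brightest probe set. Its log2 fold change was -0.03 (SE 0.09, 95% interval -0.24 to 0.18), and that of its second probe set -0.04 (SE 0.14). Agrn, which organizes acetylcholine receptors at the nerve-muscle contact, had signals of 248, 189 and 150 in control and of 286, 199 and 168 in AA cultures. AA was higher in all 3 same-numbered pairs, by 0.24, 0.13 and 0.17 on the log2 scale, but the groups overlapped and the log2 fold change of 0.18 (SE 0.10) did not pass (limma adjusted p = 0.409). The second Agrn probe set had signals from 0.314 to 5.57 and an SE of 1.12.

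**Figure D3:**
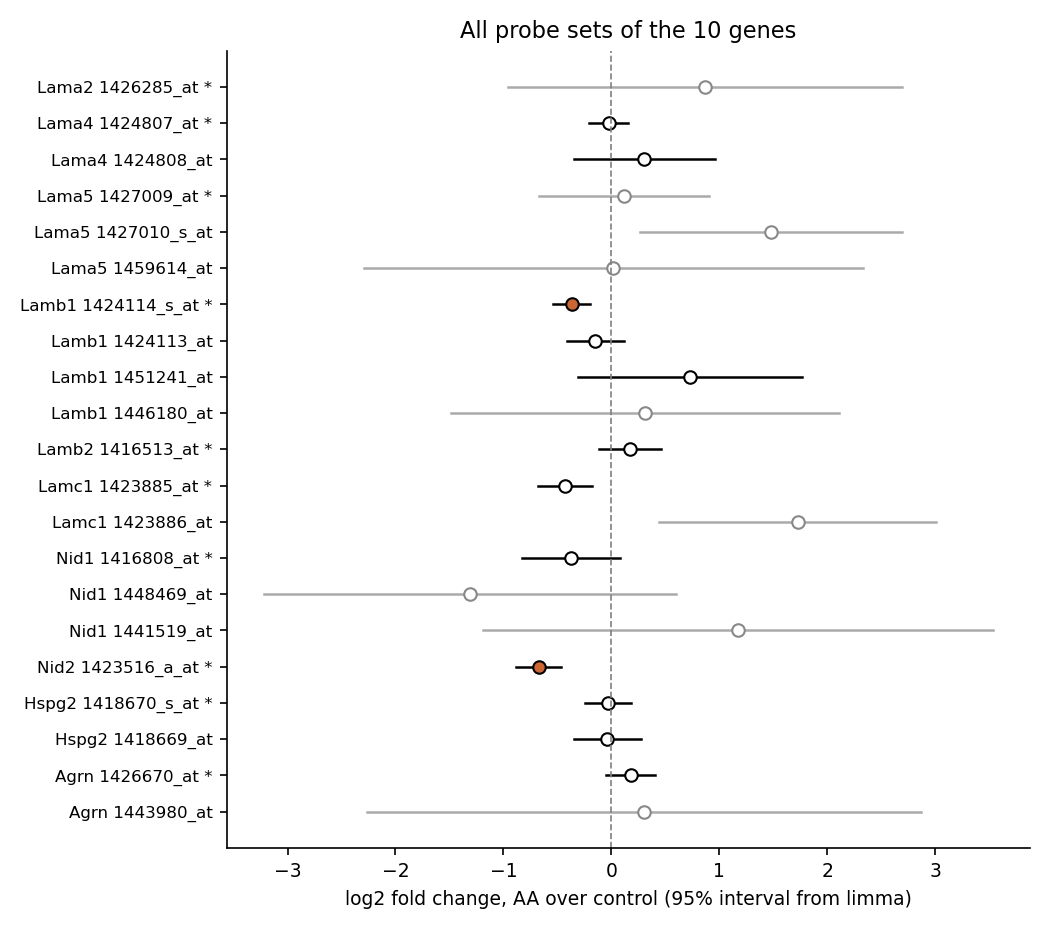
The 21 probe sets by their log2 fold change (AA over control) with the limma 95% interval, and an asterisk at the brightest probe set of each gene. Filled points passed an adjusted p of 0.05 (Nid2 at -0.67 and Lamb1 at -0.37), and grey lines mark the 9 probe sets with a mean below the median of all probe sets, whose intervals are wide.

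The difference between members was tested on the ratio of their brightest probe sets within each array, for 4 pairs of genes chosen after the values were seen. The ratio of Nid2 to Hspg2 was lower in AA by a mean log2 difference of -0.64 ± 0.08 (SD over pairs of arrays, n = 3), with all AA arrays below all control arrays. A two-sided exact permutation test gave p = 0.1, the smallest that 3 arrays against 3 allow, and 0.2 after adjustment over the 4 comparisons. The ratio of Lamc1 to Lama4 shifted by -0.41 ± 0.15 (SD, n = 3; exact permutation p = 0.1, adjusted 0.2). Lamb1 to Lamb2 shifted by -0.54 ± 0.30 (SD, n = 3; exact permutation p = 0.2, adjusted 0.267), lower in all 3 pairs, and the groups overlapped. Nid2 to Nid1 shifted by -0.30 ± 0.42 (SD, n = 3; exact permutation p = 0.3, adjusted 0.3), lower in 2 of 3 pairs. None passed, and this design cannot bring a p under 0.05.

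**Figure D4:**
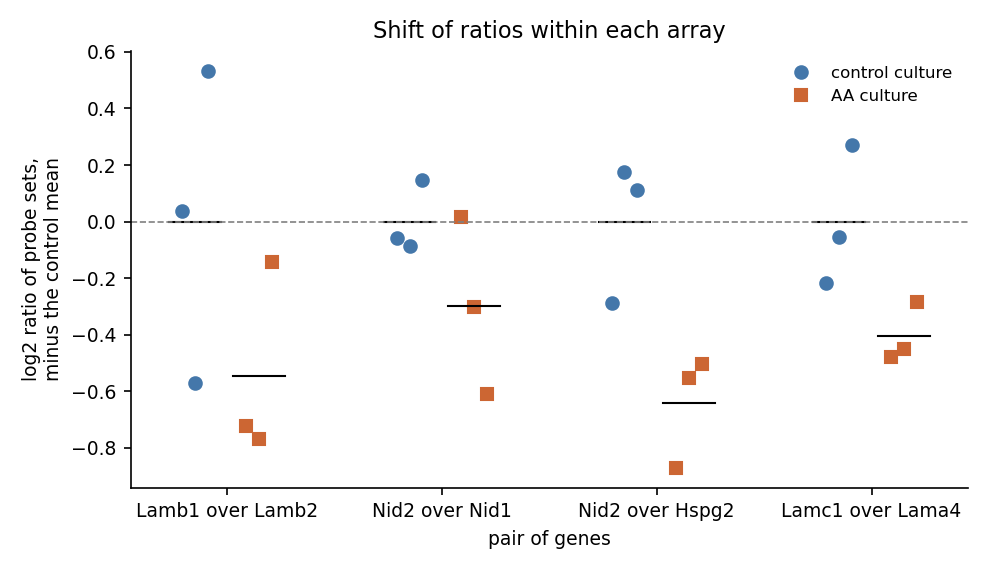
Log2 ratio of the brightest probe sets of 4 pairs of genes on each array, with the control mean of each pair set to 0. Control arrays are circles and AA arrays squares, with group means as short lines; the AA squares lie below all control arrays for Nid2 over Hspg2 and Lamc1 over Lama4, and the groups overlap for the other pairs.

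Genes that work with these members were counted in 9 lists of 89 genes, of which 82 had a probe set of their own. By each gene's brightest probe set, limma called 5 higher and 14 lower at an adjusted p under 0.05, which left 63 uncalled. Over all 18193 genes, 4.06% were called higher and 3.83% lower. The lists were chosen with earlier results of these data known, so setting their counts beside these shares tests nothing. The median log2 fold change over the 82 was -0.10.

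The other laminin chains Lama1, Lama3, Lamb3 and Lamc3 all lay below the median of all probe sets, 0 of the 4 passed limma, and 1 was lower at an unadjusted p under 0.05. Among 9 basement membrane collagens, 2 fell and 1 rose. Col4a1 and Col4a2, which form the common collagen IV trimer, fell from signals of 548 ± 31.4 to 204 ± 15.4 and from 410 ± 44.1 to 162 ± 32.1 (SD, n = 3), log2 fold changes of -1.39 and -1.32 with adjusted p of 0.000464 and 0.00192 from limma. Col15a1, which lies where basement membranes meet collagen fibrils, rose by 0.78 on the log2 scale (adjusted p = 0.0182).

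Of 7 receptors for laminins, 3 fell and none rose. Itga6, the integrin α6 subunit, moved by -1.43 on the log2 scale (adjusted p = 0.00459), Itga3, the α3 subunit, by -0.54 (adjusted p = 0.0252) and Dag1, which encodes dystroglycan, by -0.42 (adjusted p = 0.0456, all from limma). Itga6 passed on 1 of 2 probe sets, Itga3 on 1 of 3 and Dag1 on 2 of 4. For Itgb1, the partner subunit, the log2 difference was 0.25 (adjusted p = 0.299).

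Of 12 measured enzymes of the sugar chain by which dystroglycan binds laminins, only Gmppb passed limma, with a rise of 1.27 on the log2 scale (adjusted p = 0.000606), from signals of 201 ± 9.79 to 474 ± 54.1 (SD, n = 3). Gmppb makes GDP-mannose, a sugar donor for many glycans. Of 11 measured genes of the dystrophin and sarcoglycan complex, the syntrophin Sntb2 (-1.17, adjusted p = 0.00330) and sarcospan, Sspn (-0.44, adjusted p = 0.0178), fell, and the sarcoglycan Sgca rose (1.33, limma adjusted p = 0.0190). Sspn passed on 1 of 2 probe sets and Sntb2 on 3 of 4. The Sgca signals were low, 18.8 ± 2.55 and 47.5 ± 7.56 (SD, n = 3).

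Of 10 heparan sulfate proteoglycans of the cell surface, 4 fell and none rose: the glypicans Gpc4 (-0.86, adjusted p = 0.000637) and Gpc6 (-0.63, adjusted p = 0.00483), and the syndecans Sdc2 (-0.42, adjusted p = 0.0115) and Sdc3 (-0.36, limma adjusted p = 0.0475). Gpc4 passed on both of its probe sets, Gpc6 on 2 of 5, Sdc2 on 1 of 4 and Sdc3 on 1 of 3. Perlecan, the secreted proteoglycan of the same sugar class, did not pass, as given above. Of 15 other basement membrane glycoproteins, Pxdn, the peroxidase that crosslinks collagen IV, fell by 1.25 on the log2 scale (adjusted p = 0.000710) and Ntn1, netrin-1, by 0.60 (limma adjusted p = 0.0110), the latter on 1 of 2 probe sets.

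Among 10 proteases and activators, Mmp14, a membrane-bound metalloproteinase, rose by 0.41 on the log2 scale (adjusted p = 0.0131) on all 3 of its probe sets, and Plat, the tissue plasminogen activator, rose by 0.82 (adjusted p = 0.00530) on 1 of 2. Adamts1, a secreted metalloproteinase, fell by 1.18 (limma adjusted p = 0.000464). Of 4 genes through which agrin signals, Lrp4, Musk, Dok7 and Rapsn, 0 passed limma, and at an unadjusted p under 0.05 there were also 0.

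**Figure D5:**
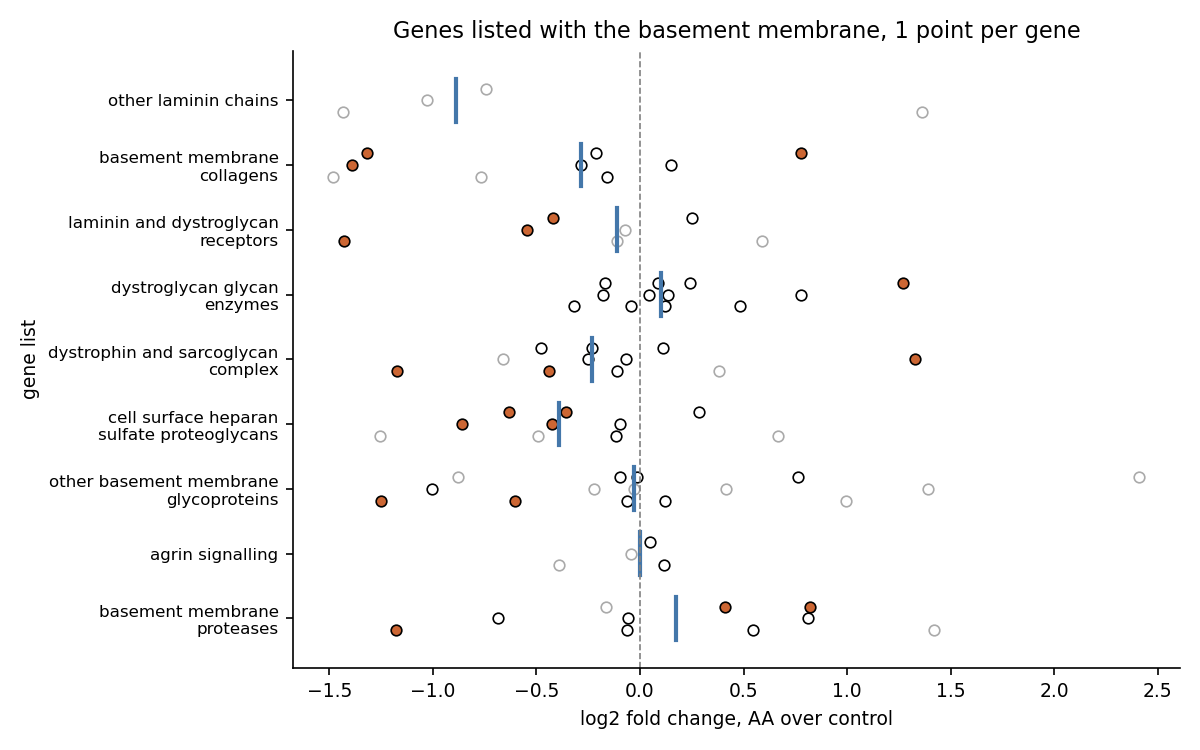
Log2 fold change, AA over control, of the brightest probe set of each of 82 genes in 9 lists, drawn as points, and the median of each list as a bar. Genes under an adjusted p of 0.05 are filled, and grey outlines mark genes below the median signal of all probe sets; the heparan sulfate proteoglycan list has 4 filled points, all below 0.

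The labelled cell type was checked on osteoblast markers, of which 7 of 10 were measured, that is, had a probe set annotated to that gene alone. Spp1, Bglap and Runx2 had none. Of those measured 3 rose, beside 4.06% of all genes called higher. Alpl went from 120 ± 13.3 to 339 ± 75.5, Ibsp from 1631 ± 568 to 4807 ± 736 and Ifitm5 from 125 ± 88.6 to 2483 ± 1090 (SD, n = 3). Sp7, Col1a1 and Col1a2 did not pass by their brightest probe sets (log2 fold changes 0.29, 0.11 and 0.04, limma adjusted p = 0.235, 0.417 and 0.804). Of the Col1a1 probe sets, 1 of 2 passed as higher. Phex, with a mean below the median of all probe sets, did not pass either (-0.56, limma adjusted p = 0.644). Of the endothelial markers, 0 of 7 lay above the median of all probe sets. Their summed signal ran from 33.0 to 38.9 in control and from 19.95 to 39.7 in AA cultures, and Vwf passed as lower from a signal of 5.35 to one of 0.499. Of 7 skeletal muscle and 4 measured adipocyte markers, 0 passed limma, also at an unadjusted p under 0.05. Of 3 measured markers of Schwann cells and glia, S100b fell (log2 fold change -0.81, limma adjusted p = 0.0113, or 0.101 without the replicate block), and the summed signal of the 3 ran from 124 to 215 in control and from 83.5 to 120 in AA cultures. Among smooth muscle and pericyte markers 1 of 6 rose, Cspg4, and 2 were lower at an unadjusted p under 0.05 without passing (Myh11, log2 fold change -2.49, and Pdgfrb, -0.29). Also among macrophage markers 1 of 5 rose, Csf1r, while 0 of 6 epithelial markers passed and 1 was higher at an unadjusted p under 0.05. The part of these markers in the results above was not tested.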

How the data were processed

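MC3T3-E1 RNA of 3 untreated and 3 AA cultures was hybridised to 6 arrays. Each deposited value is a linear intensity, made by the authors with MAS5 according to the submitters' processing notes (version not given in the sources used here), and their trimmed mean, without 2% at each end, was 150.0 on every array. The quantile normalization and GC-RMA of the methods are not in these values, and the table holds no detection calls. Median signals ran from 14.9 to 17.7, and the number of arrays limits the precision.

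Without the array's 64 control probe sets, 45037 remained, whose log2 signal was quantile-normalized and fitted with limma 3.58.1 in R 4.3.3, using a variance prior with a trend on signal, and replicate number as a blocking factor, since paired tests are named in the methods. This left 2 residual degrees of freedom plus 6.18 from the prior. The threshold was 0.05 after Benjamini-Hochberg adjustment across the whole array. The fit was tested on simulated data. Genes were named from the platform annotation, and a comparison of Entrez identifiers with RefSeq (GRCm38.p6) changed 0 symbols. Promoter motifs were searched with Python 3.11.15.

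The members and lists were chosen with earlier results of these data known. All member probe sets are described, and of the called genes at most 4 per list and direction are named, by smallest p. Outside this rule, Itgb1, Lama1, Lama3, Lamb3, Lamc3, the agrin signalling genes and the cell type markers were added after their values were seen. Alternatives were other scalings, a pseudocount of 50, a filter on dim probe sets, no trend, no block, the methods' t-test and thresholds (p 0.01, fold 1.5), leaving out each replicate or array, and averaging all probe sets of a gene.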

Additional observations from a re-analysis of the deposited data

How the results depend on the processing

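Member calls rested on few arrays and on the moderation of the variance. Against 2 lower probe sets, 0 were lower without the trend and 0 by the methods' t-test after Benjamini-Hochberg adjustment, settings in which 0 of all 45037 probe sets passed in either direction. There was 1 without the replicate block (Nid2), 1 by the t-test at its own threshold (Lamb1) and 1 by the methods' thresholds on limma (Nid2), beside 1039, 736 and 920 lower over the whole array. With 1 replicate or array left out, the lower count ran from 0 to 2 and the higher count from 0 to 1, the latter being the dim Lamc1 probe set without the block and without control replicate 1. The lower count was 1 without replicate 2 or replicate 3 of both groups (398 and 960 over the array), and 0 without the block and without control replicate 2 (366 over the array). Without the trend, limma gave 2587 probe sets higher and 2616 lower at an unadjusted p under 0.05, of which 0 and 1 were members.

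Of the related genes, 5 rose and 14 fell. These counts were 0 and 0 without the trend, 2 and 8 by the t-test, 0 and 0 after its adjustment, and, for the lower count, 9 by the methods' thresholds and 8 when all probe sets of a gene were averaged. The settings with 0 and 0 called no probe set on the array, and the t-test called 706 higher and 736 lower. Leaving out a replicate of both groups gave 2 to 7 higher and 9 to 13 lower, beside 532 to 1148 and 398 to 960 over the array. Leaving out single arrays without the block gave 2 to 6 higher and 7 to 12 lower, beside 381 to 1162 and 339 to 899. The main fit called 1219 higher and 1124 lower over the array, so calls became fewer across the array too. Among the related genes, the higher count was 2 without replicate 2, and, without the block, 3 without control replicate 2, 3 without AA replicate 1 and 2 without AA replicate 2. The lower count was 9 without replicate 2, and, without the block, 7 without AA replicate 2 and 9 without control replicate 2 or AA replicate 3. The estimate for Lamb1 changed sign, to 0.13, with the mean of its probe sets, without passing (limma adjusted p = 0.657). Nid2 was estimated from -0.79 to -0.58 under 19 alternatives, and its call was kept under 15 and lost under 4. In several of these its estimate could not change, since only the test, the filter or the averaging of its only probe set differed.

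Same-numbered arrays deviated together only weakly, with correlations of 0.182, 0.0251 and 0.0921. Those of differently numbered arrays ran from -0.143 to 0.0513, a range that holds 0.0251, so the numbers do not establish pairs. The replicate block was kept because the methods name paired tests. The cause of these differences was not tested. Low signals limit Lama2 and Lama5.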
